A study of Mus musculus with 13 samples.

Results

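The kinase Map3k8 (also called Tpl2 or Cot) and 8 transcripts of the MAP kinase cascade around it were followed in sorted microglia. The 9 genes (Map3k8, Tnip2, Map2k1, Map2k3, Mapk3, Mapk8, Mapk14, Mapkapk2 and Dusp1) were chosen by name, as the entries of the expression table with these symbols, out of 14518 entries. They were selected with their difference between stressed and control samples known from earlier results of these data, so that difference is given below as a description with no test of single members. Microglia, the resident macrophages of the brain, had been enriched on Percoll and sorted by flow cytometry as CD11b+ cells with intermediate CD45 from C57BL/6 mice aged 2 months. The stressed group (RSD, n = 7, samples 2, 7, 8, 10, 11, 12 and 13) underwent repeated social defeat in 6 cycles, a procedure in which mice are exposed to an aggressive animal. The control group (CON, n = 6, samples 1, 4, 5, 17, 18 and 19) had not, and no genetic change is named for either group. RNA was extracted and sequenced 24 days after the end of the stress, so the comparison asks which transcripts still differed at that time. Whether every library stems from its own animal is not stated, so a p-value here reflects how far these libraries spread, which may in part be technical.

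MAP kinase cascades pass a signal from a receptor through a chain of kinases, each of which phosphorylates the next: a MAP3K acts on a MAP2K, which acts on a MAP kinase (ERK, JNK or p38). In macrophages Map3k8 is held inactive by the NF-kappa-B precursor p105 (Nfkb1) and the ubiquitin-binding protein Tnip2 (ABIN-2), and is set free when Toll-like receptors or the TNF receptor activate the IKK complex, after which it activates MEK and through it ERK. The p38 arm controls the stability and translation of cytokine mRNAs through the kinase Mapkapk2 (MK2), and phosphatases such as Dusp1 switch p38 and JNK off again. Much of this control acts on the proteins, which were not measured here.

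Each library held 9.76 to 12.3 M reads. Values below are normalized reads, that is, read counts divided by the size factor of the library. The libraries carried the markers of the labelled cell type: the summed level of 6 microglial markers lay between 251501 and 270906 in 12 libraries. It was lower in CON 18, at 162748. In CON 18 the 6 detected markers of border-associated macrophages (Mrc1, Cd163, Pf4, Ms4a7, Cbr2 and F13a1, of 7 listed) were all at their highest, with a sum of 14730 against 185.7 to 328.7 in the other CON libraries and 290.1 to 444.0 in RSD. Of these markers, 2 were at 0 in at least 1 library. In RSD 8, a library whose deviations from the mean of all libraries fell with the GC content of the transcripts (Spearman rho -0.727 over 12373 genes, which are not independent), no such excess was seen (sum 296.9). Results are therefore given with and without CON 18 and RSD 8. In bulk RNA, fewer cells of a type and less RNA per cell cannot be told apart.

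All 9 transcripts were detected in every library, and all 9 passed the filter on low values. Per kilobase of exon, the mean level over the 13 libraries was highest for Dusp1, at 3327 ± 768 normalized reads (SD). Mapk14 followed at 644.2 ± 46.3, Mapk3 at 395.3 ± 38.4 and Map2k1 at 294.4 ± 42.3 on the same scale. Mapkapk2 stood at 264.5 ± 18.4 and Tnip2 at 228.2, with 224.7 ± 18.8 in RSD (SD, n = 7) and 232.3 ± 12.3 in CON (SD, n = 6). Mapk8 (66.5 ± 9.53), Map3k8 (64.7 ± 12.8) and Map2k3 (61.2 ± 5.67) were the lowest and did not differ beyond their spread, and the ranges of Map2k1, Mapkapk2 and Tnip2 also overlapped. Per kilobase, Tnip2 was above its partner Map3k8 in every library, and Dusp1 was above all the kinases of the set.

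**Figure D1:**
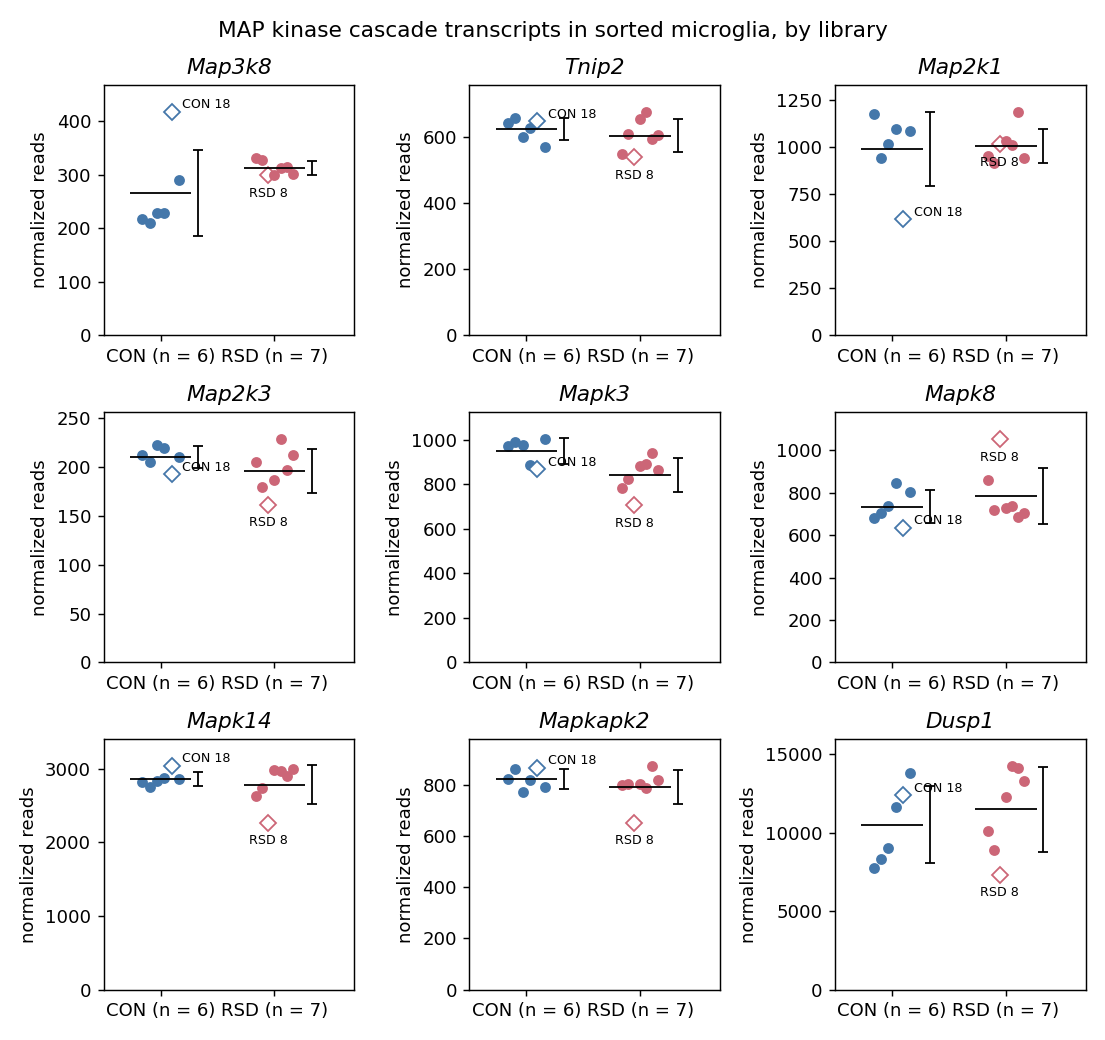
Normalized reads of the 9 transcripts in each library (points), by group, with the group mean (line) and SD (bar), for 6 CON and 7 RSD samples; open diamonds are CON 18 and RSD 8. All RSD values of Map3k8 lie at or above 299.0, and all CON values except that of CON 18 lie at or below 291.0, while the groups overlap for the other 8 transcripts.

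Map3k8, the kinase at the head of the set, was higher in RSD than in all CON samples but one. The gene lies on the minus strand at chr18:4331327-4353015 (GRCm38, also called mm10, with GENCODE M21 gene models), and its exons share no base with another gene. In RSD the values were 332.4, 328.1, 299.0, 300.3, 312.5, 314.5 and 302.3 normalized reads for samples 2, 7, 8, 10, 11, 12 and 13. In CON they were 218.4, 210.6, 229.5, 228.8, 418.1 and 291.0 for samples 1, 4, 5, 17, 18 and 19. CON 18 was thus the highest of all libraries, and every other CON library was below every RSD library. The mean was 312.7 ± 13.4 in RSD (SD, n = 7) and 266.1 ± 79.8 in CON (SD, n = 6), or 235.6 ± 31.9 in CON without CON 18 (n = 5). On this scale the RSD samples lay closer to each other than the CON samples did. The SD in RSD was smaller than the counting error of a single value (5.19% to 6.82%), so this closeness is a description only. After the correction for GC content described below, the RSD range was 7.89 to 8.37 on the log2 scale. That of CON was 7.83 to 8.69, and 7.83 to 8.20 without CON 18. With RSD 8 kept, RSD was thus the closer group after the correction only if CON 18 was kept as well.

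The log2 difference of Map3k8 between RSD and CON was 0.28 (SE 0.13) with all 13 samples and 0.43 (SE 0.09) without CON 18 and RSD 8. Without CON 18 alone it was 0.42. These values rest on 215 to 371 reads per library, which carry a counting error of 5.19% to 6.82%. The gap between CON 19 (291.0) and RSD 8 (299.0), the closest samples of the 2 groups once CON 18 was left out, is smaller than that error. CON 18 is the library with the excess of border-associated macrophage markers, and in the remaining libraries the sum of those markers was 185.7 to 328.7 in CON and 290.1 to 444.0 in RSD. Their part in the level of Map3k8 was not tested.

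Tnip2, which binds Map3k8 and p105 and keeps the kinase stable, did not follow Map3k8 (chr5:34496087-34513991, minus strand). Its lowest, median and highest values were 538.4, 604.6 and 675.9 normalized reads in RSD and 570.4, 635.2 and 656.7 in CON. The RSD range enclosed the CON range. The log2 difference was -0.05 (SE 0.07), and -0.01 (SE 0.07) without CON 18 and RSD 8. Nfkb1, the third protein of the complex, stood at 2134 ± 105 normalized reads in RSD (SD, n = 7) and 2076 ± 71.6 in CON (n = 6), a log2 difference of 0.04 (SE 0.06).

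Of the MAP2K kinases, Map2k1 (MEK1), the direct substrate of Map3k8 and activator of ERK, was set apart by 1 control library (chr9:64185770-64253631, minus strand). It ran from 914.8 over a median of 1009 to 1187 normalized reads in RSD and from 616.4 over 1051 to 1173 in CON. The lowest value was that of CON 18, and the next lowest CON value, 942.4 in CON 4, lay inside the RSD range. The log2 difference changed sign with that library, from 0.05 (SE 0.12) with all samples to -0.08 (SE 0.07) without CON 18 and RSD 8. CON 18 was thus the highest library of all for Map3k8 and the lowest for Map2k1.

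Map2k3 (MKK3), which activates p38, had the lowest mean per kilobase over all libraries, though within the spread of Map3k8 and Mapk8 (chr11:60932033-60952811, plus strand). Its values were 161.7, 197.0 and 229.0 normalized reads at the lowest, median and highest RSD sample and 192.7, 211.4 and 223.1 in CON. The lowest was RSD 8, and the groups overlapped. The log2 difference was -0.11 (SE 0.09) with all samples and -0.09 (SE 0.09) without both libraries. Its partner in p38 activation, Map2k6, stood at 192.7 ± 14.2 normalized reads in RSD (SD, n = 7) and 181.2 ± 15.4 in CON (n = 6).

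Mapk3 (ERK1), the kinase activated by Map2k1, was lower in RSD in the mean, with overlapping groups (chr7:126759601-126765819, plus strand). Its lowest, median and highest values were 706.6, 864.7 and 941.6 normalized reads in RSD and 867.7, 973.9 and 1005 in CON. The lowest 3 libraries of all were RSD 8, RSD 2 and RSD 7, all with numbers below 10. The log2 difference went from -0.18 (SE 0.07) to -0.08 (SE 0.05) once each library was corrected for its trend with GC content. Without CON 18 and RSD 8 it was -0.16 (SE 0.06), and -0.12 (SE 0.05) with the correction as well.

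Mapk8 (JNK1), a stress-activated kinase that phosphorylates Jun, had its highest value in RSD 8 (chr14:33377898-33447158, minus strand). It ran from 687.2 over a median of 728.4 to 1053 normalized reads in RSD and from 634.4 over 720.2 to 845.1 in CON. Without RSD 8 and CON 18 the highest RSD value was 861.2, in RSD 2, and the groups still overlapped. The log2 difference changed sign, from 0.09 (SE 0.10) with all samples to -0.03 (SE 0.07) without both libraries and to -0.02 (SE 0.06) after the correction for GC content.

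Mapk14 (p38-alpha), the main p38 kinase of macrophages, was the most abundant kinase of the set per kilobase (chr17:28691329-28748406, plus strand). Its values were 2267, 2904 and 2996 normalized reads at the lowest, median and highest RSD sample and 2748, 2845 and 3036 in CON. RSD 8 was the lowest library and CON 18 the highest. The log2 difference was -0.05 (SE 0.07) with all samples and 0.02 (SE 0.05) without both. Mapkapk2 (MK2), the kinase downstream of p38 that controls cytokine mRNAs, ran from 651.2 over 802.2 to 872.2 normalized reads in RSD and from 771.7 over 819.3 to 865.5 in CON (chr1:131053700-131097826, minus strand). Again RSD 8 was the lowest library, and the difference of -0.06 (SE 0.07) on the log2 scale became 0.00 (SE 0.06) without both libraries.

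Dusp1 (MKP-1), the phosphatase that inactivates p38 and JNK and is itself induced by MAP kinase signalling and by glucocorticoids, was by far the most abundant member per kilobase, and its levels split by sample number rather than by stress group. It lies on the minus strand at chr17:26505590-26562128, and 11 of its exon bases are shared with Ergic1 on the opposite strand. RefSeq (GRCm38.p6) held promoter entries for 7 of the 9 members. That of Dusp1 is shown because Dusp1 is the transcript that varied most between libraries of 1 group (SD 0.36 on the log2 scale). Of the 250 bases before the RefSeq start, the 203 outside GENCODE exons are printed 5′ to 3′ on the gene's strand (chr17:26508520-26508722); 47 exonic bases were left out. Capitals mark the sites TGACG (on either strand) and CACGTG.
Dusp1 promoter: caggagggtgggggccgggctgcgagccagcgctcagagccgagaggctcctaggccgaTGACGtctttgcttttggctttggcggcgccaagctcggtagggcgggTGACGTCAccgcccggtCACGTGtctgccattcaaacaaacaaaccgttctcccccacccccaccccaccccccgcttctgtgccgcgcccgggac

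The motifs were searched as letters on both strands, in this stretch and in the same 203 positions of all 32851 promoter entries (the windows). The palindrome TGACGTCA, the full cyclic AMP response element, occurred once in Dusp1, 143 to 136 bases before the start, and in 0.855% of all windows. TGACG occurred at 3 places, of which 2 are the overlapping arms of that palindrome, and in 13% of windows. The E-box CACGTG lay 126 to 121 bases before the start and occurs in 4.42% of windows. GGGCGG, the Sp1 motif, was found at 2 places (25.2% of windows). The AP-1 motif TGANTCA, held by 5.66% of windows, was not among these letters. Nor was TATAAA, the letters of the TATA box, held by 9.27%. The 47 bases nearest the start lay outside every window, so whether Dusp1 or the other entries hold a TATA box there was not tested. A match of letters is not a measured binding site.

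Between the stress groups, Dusp1 ran from 7316 over a median of 12290 to 14230 normalized reads in RSD and from 7757 over 10340 to 13770 in CON. The groups overlapped over nearly their whole ranges. The log2 difference was 0.12 (SE 0.18) with all samples and 0.28 (SE 0.19) without CON 18 and RSD 8, and with sample quality weights (limma-voom) it was 0.37. The SD within a group, 0.36 on the same scale, was as large or larger in each of these cases but that of the weighted fit.

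Read across the 9 members, the differences between RSD and CON had a median of -0.05 on the log2 scale, with 4 positive and 5 negative, against a median of 0.01 over the 12496 genes tested. With limma on log2(normalized reads + 1), 0 members and 0.0% of all genes tested passed an adjusted p of 0.05, and the smallest adjusted p of any gene was 0.821. edgeR also called 0 genes and DESeq2 called 2. At an unadjusted p under 0.05, limma picked 1 member (Mapk3) and 4.0% of all genes tested, 500 in number; edgeR picked 601 genes and DESeq2 577. Without CON 18 and RSD 8 the unadjusted count was 2 members (Map3k8 and Mapk3) against 4.88% of genes. After the correction for GC content it was 0 members against 3.98%. Since the members were chosen on this same contrast, nothing is read from these counts.

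Complete separation of the groups was rare in the whole table. With all 13 samples, 0 members and 0.064% of genes had RSD and CON ranges that did not overlap. Without CON 18, every RSD sample was above every CON sample for 1 member, Map3k8, and for 0.0954% of genes. Without both CON 18 and RSD 8 the same held for Map3k8 and for 0.168% of genes. Map3k8 stood among the members on account of this contrast, so its place in these small sets is a description.

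**Figure D2:**
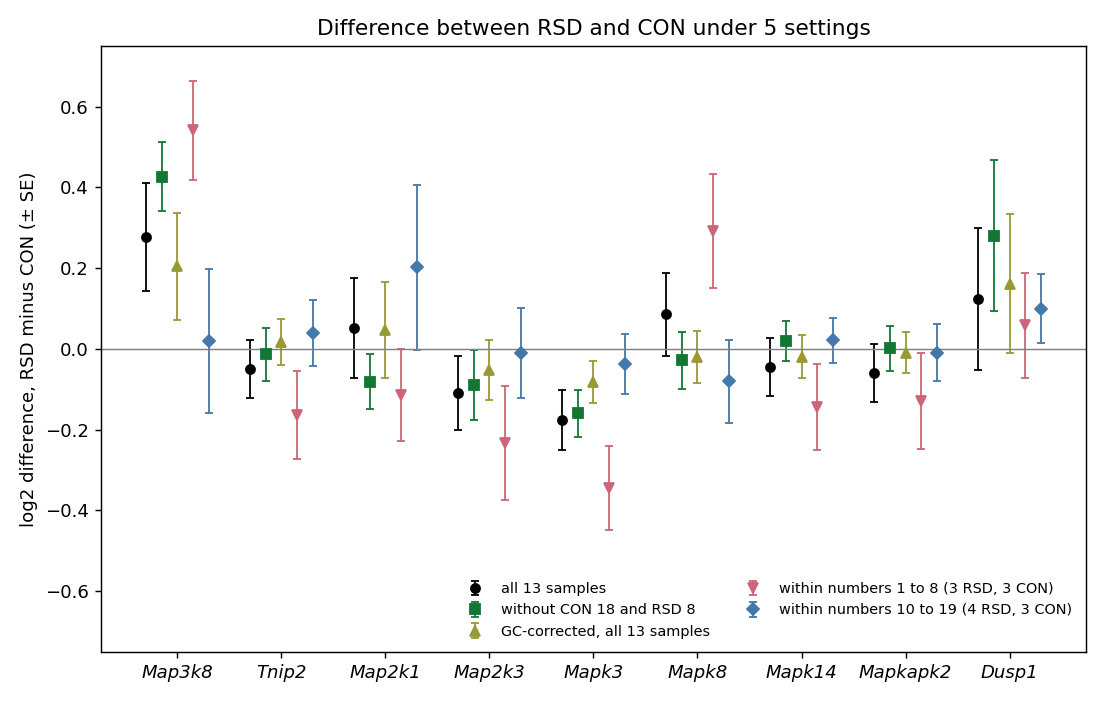
Log2 difference between RSD and CON for each transcript, with its SE (bars), under 5 settings: all 13 samples, without CON 18 and RSD 8, after correction for GC content, and within each range of sample numbers. Map3k8 is positive under each setting shown, from 0.02 within numbers 10 to 19 to 0.54 within numbers 1 to 8. Dusp1 is also positive under each, Map2k3 and Mapk3 are negative under each, and Tnip2, Map2k1, Mapk8, Mapk14 and Mapkapk2 change sign.

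The sample numbers in the labels fall in 2 ranges, 1 to 8 (3 RSD and 3 CON) and 10 to 19 (4 RSD and 3 CON); the labels do not say that these were batches. Within numbers 1 to 8, Map3k8 was 319.8 ± 18.2 normalized reads in RSD (SD, n = 3) and 210.6 to 229.5 in CON (n = 3, mean 219.5), a log2 difference of 0.54 (SE 0.12). Within numbers 10 to 19 it was 307.4 ± 7.13 in RSD (n = 4) and 312.6 ± 96.5 in CON (n = 3), a log2 difference of 0.02 (SE 0.18). Without CON 18, the CON samples 17 and 19 had 228.8 and 291.0 and the log2 difference was 0.25 (SE 0.11). Within the higher numbers, the difference in Map3k8 thus rested on which control libraries were kept.

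With all samples, Mapk3 and Mapk8 also differed more within the lower numbers. That range holds RSD 2 and RSD 8, whose deviations fell most with the GC content of the transcripts (Spearman rho -0.51 and -0.727). Mapk3 is the richest member in GC (56.4%) and Mapk8 the poorest (41.9%). Neither the fits within a number range nor the interaction were corrected for GC content, so its part was not tested. The log2 difference of Mapk3 was -0.35 (SE 0.10) within numbers 1 to 8 and -0.04 (SE 0.07) within 10 to 19. That of Mapk8 was 0.29 (SE 0.14) and -0.08 (SE 0.10). Within numbers 10 to 19 without CON 18, the log2 difference was -0.08 (SE 0.07) for Mapk3 and -0.21 (SE 0.07) for Mapk8. The interaction of stress with number range, tested with limma over all genes, gave -0.52 ± 0.22 (SE) for Map3k8 (adjusted p = 0.205), 0.31 ± 0.12 for Mapk3 (adjusted p = 0.187) and -0.37 ± 0.18 for Mapk8 (adjusted p = 0.243). No member passed, and nor did any gene (0.0% of those tested). An unadjusted limma p under 0.05 was reached by 2708 of the 12496 genes tested, Map3k8 and Mapk3 among them. Without CON 18 and RSD 8, 463 of the 12535 genes tested passed and none of the 9 members did. The smallest adjusted p among them was then that of Mapk8, with an interaction of -0.36 ± 0.12 (limma adjusted p = 0.0769).

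Dusp1 separated completely by number range and not by stress. It was 8572 ± 991 normalized reads in the 6 samples numbered 1 to 8 (SD; lowest 7316 in RSD 8, highest 10086 in RSD 2). In the 7 samples numbered 10 to 19 it was 13110 ± 1009 (SD; lowest 11654 in CON 17, highest 14230 in RSD 11). Both stress groups showed it: CON was 8371 ± 635 in the lower range (n = 3) and 12602 ± 1075 in the higher (n = 3), and RSD was 8772 ± 1390 (n = 3) and 13491 ± 901 (n = 4). With number range and stress as terms, a comparison chosen after this split was seen, limma gave a log2 difference of 0.61 ± 0.08 (SE) and an adjusted p of 0.00204 for Dusp1. With each library left out in turn the difference was 0.55 to 0.66 and the limma adjusted p 0.000694 to 0.0119. Without both CON 18 and RSD 8 it was 0.55 ± 0.06 (limma adjusted p = 3.05e-06). Dusp1 was the 1 member that passed, among 0.688% of all genes tested.

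Mapk14, whose product Dusp1 dephosphorylates, was ordered the same way at a far smaller size. Its values were 2267 to 2832 normalized reads in numbers 1 to 8 and 2858 to 3036 in 10 to 19, without overlap. The gap between the closest samples, CON 5 (2832) and CON 19 (2858), is smaller than the counting error of 1.78% to 2.17%. The log2 difference was 0.15 ± 0.06 (limma adjusted p = 0.344). All samples of the higher range lay above all of the lower for 2 members, Mapk14 and Dusp1, and for 0.624% of genes. For the other 7 members the limma adjusted p of the number range was 0.574 to 0.943. Of the marker lists, that of neutrophils moved with the ranges: the sum of its 6 genes was 181.5 to 1185 normalized reads in numbers 1 to 8 and 11.6 to 134.0 in 10 to 19, with 4 genes at 0 in at least 1 library. Its part in the level of Dusp1 was not tested.

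**Figure D3:**
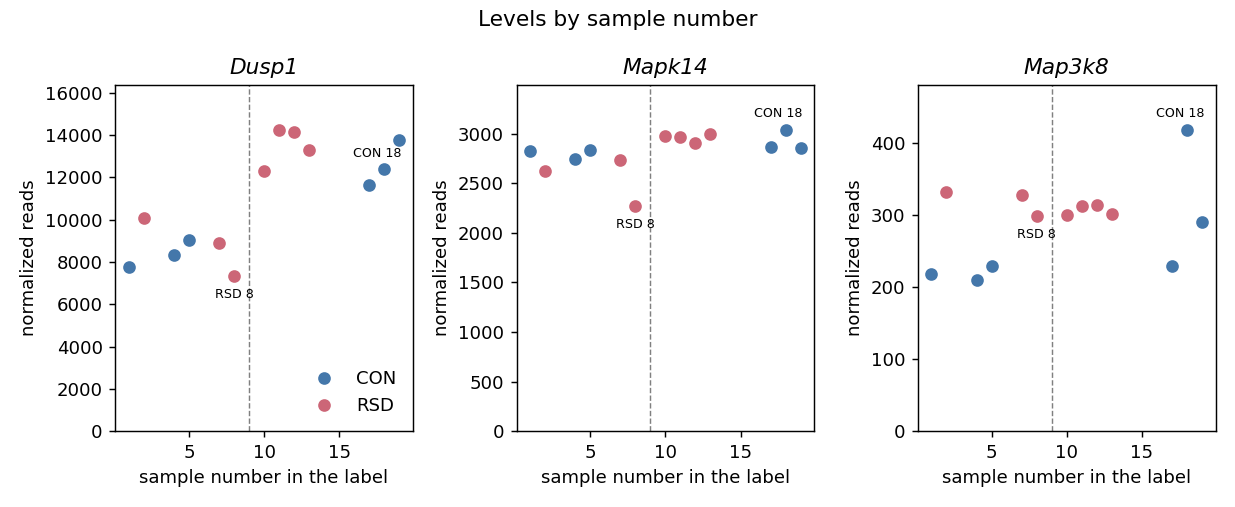
Normalized reads of Dusp1, Mapk14 and Map3k8 against the sample number in the label, with CON in blue, RSD in red and a dashed line between the 2 ranges. Dusp1 lies at 7316 to 10086 left of the line and at 11654 to 14230 right of it in both groups, while Map3k8 shows no such step.

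The members also differed in the GC content of their transcripts, which bears on RSD 8 and RSD 2, the 2 libraries with the most negative trend (Spearman rho -0.727 and -0.51 across genes, against -0.0393 to 0.485 in the others). Transcript GC content was lowest for Mapk8 (41.9%) and Map3k8 (44.8%), and it was 50.3% to 56.4% for the other 7. Against the median of the 11 libraries that are neither, Mapk8 was higher by 0.56 on the log2 scale in RSD 8 and by 0.27 in RSD 2. The members of 52.3% GC or more were all lower in RSD 8, by -0.22 (Tnip2) to -0.75 (Dusp1), and Mapk3, the richest in GC, stood at -0.34. Map3k8 and Map2k1 were within 0.01 of the median in RSD 8, and Map3k8 was higher by 0.15 in RSD 2.

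After each library was corrected for this trend, the log2 difference of Map3k8 between RSD and CON was 0.20 (SE 0.13), and 0.39 (SE 0.08) without CON 18 and RSD 8. RSD 8, the lowest RSD library for Map3k8 with and without the correction, then stood at 7.89 on the log2 scale, inside the range of the CON libraries without CON 18 (7.83 to 8.20). The separation of Map3k8 between the groups without CON 18 was therefore not present after the GC correction. Whether it was present after the correction once RSD 8 was left out as well was not tested. Dusp1 was still lowest in the stressed group in RSD 8 after correction, at 13.01.

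**Figure D4:**
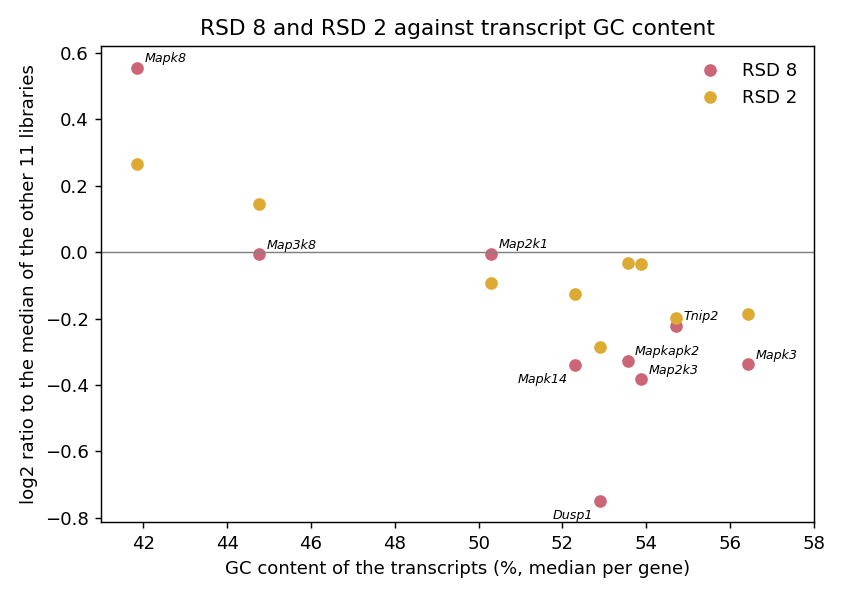
Log2 ratio of RSD 8 (red) and RSD 2 (yellow) to the median of the other 11 libraries, against the median GC content of each transcript in percent, for the 9 transcripts. Mapk8, at 41.9% GC, is the highest in both libraries, and the 5 transcripts of 52.3% GC or more other than Dusp1 lie at -0.22 to -0.38 in RSD 8 with Dusp1 at -0.75.

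Whether the other members varied with Map3k8 between samples of 1 group was asked with group means removed, in 8 relations over 13 samples. None passed adjustment over the 8. The strongest was with Map2k1 (Pearson r = -0.766, permutation p = 0.0199, adjusted p = 0.159; Spearman rho = -0.44, permutation p = 0.135, adjusted p = 0.539). It rested on CON 18: without CON 18 and CON 4, the 2 samples farthest from the median of Map3k8, r was -0.184, and without CON 18 and RSD 8 it was 0.07. For the relations with the members other than Dusp1 and Map2k1, r lay between -0.273 (Mapk3) and 0.255 (Mapk14). Without CON 18 and RSD 8 (11 samples) the strongest was with Tnip2 (r = -0.66, permutation p = 0.0231, adjusted p = 0.185; rho = -0.664, adjusted p = 0.251). That with Mapk8 was then r = 0.514 (permutation p = 0.107, adjusted p = 0.42), and none passed adjustment.

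Because Dusp1 falls into separate clusters by number range, its relation with Map3k8 is given only within them. Exact means here that all orderings were counted, shuffled across RSD and CON together after the group means were removed. Values of the groups are not freely exchangeable after that step, so these p-values are approximate and may be too small. Within numbers 1 to 8, r was 0.85 (n = 6, exact permutation p = 0.0306, adjusted p = 0.0815; rho = 0.886, adjusted p = 0.133). Dusp1 was not alone there: Map2k3 had r = 0.865 (n = 6, exact permutation p = 0.0167, adjusted p = 0.0815) and Mapk14 r = 0.836 (n = 6, exact permutation p = 0.0222, adjusted p = 0.0815). RSD 8 was the lowest RSD library for Map3k8 (299.0), Dusp1 (7315.9), Map2k3 (161.7) and Mapk14 (2266.6). Whether these relations hold within numbers 1 to 8 without RSD 8 was not tested. For Dusp1 within 10 to 19, r was 0.236 (n = 7, exact permutation p = 0.679), and without CON 18 it was 0.838 (n = 6, exact permutation p = 0.0153, adjusted p = 0.0611). The relation with Mapk8 within 10 to 19 was r = -0.943 (n = 7, exact permutation p = 0.00317, adjusted p = 0.0254; rho = -0.893, adjusted p = 0.0984). It did not hold without CON 18 (r = -0.587, n = 6, exact permutation adjusted p = 0.644). In those 6 samples that with Mapk3 was r = 0.894 (exact permutation p = 0.00556, adjusted p = 0.0444; rho = 0.943, adjusted p = 0.133), against -0.273 over all 13 samples.

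By rank over all 13 samples, the transcripts most like Map3k8 among 8853 with a mean of at least 100 normalized reads were Nrp1 (Spearman rho = 0.879), Anapc1 (0.863), Fam65b (0.857), Zbtb21 (0.813) and Kpna4 (0.797). Nrp1, a co-receptor for semaphorins and VEGF, stood at 8035 normalized reads in CON 18 against a median of 2751 in the other CON libraries and 2989 in RSD. Fam65b stood at 918.4 in CON 18 against 95.5 and 159.3. Without CON 18 and RSD 8 the closest were Rnf19a (rho = 0.955), Kpna4 (0.918), Zc3h12c (0.882), Anapc1 (0.873) and Bag4 (0.864) over 11 samples. Kpna4 and Anapc1 were among the 5 closest both times, but the 11 samples of the second ranking are all part of the first. Group means were not removed here, so the ranks also take in the difference between RSD and CON on which Map3k8 was chosen. These likenesses are descriptions picked from many genes, and the samples share their libraries and depth.

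Around the members, lists of the same pathway showed no gene that passed between RSD and CON at an adjusted p of 0.05 with limma (0.0% of all genes tested). None had an unadjusted limma p under 0.05, against 4.0% of all genes tested. Without CON 18 and RSD 8, 3 of the 8 lists had 1 gene each at an unadjusted p under 0.05, against 4.88% of all genes tested. The lists were chosen with earlier results known, so nothing is read from these counts. Of the MAP3K kinases and their partners, 21 of 24 were tested, 12 of them positive and 9 negative, with a median log2 difference of 0.01, against 0.01 over all genes. Of these, Map3k14 (NIK), the kinase of the alternative NF-kappa-B pathway, had the smallest p, at -0.18 (SE 0.12). The 5 MAP2K kinases other than Map2k1 and Map2k3 were all tested, 2 positive and 3 negative (median -0.05). Map2k4, an activator of JNK, stood at 0.10 (SE 0.07), Map2k7 at -0.05 (SE 0.09), Map2k6 at 0.09 (SE 0.09) and Map2k2 (MEK2) at -0.10 (SE 0.15).

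Of the MAP kinases other than the members, 6 of 11 were tested, 4 positive and 2 negative (median 0.05), and Mapk7 (ERK5) stood at -0.25 (SE 0.13). Of the MAP kinase-activated kinases and RNA-binding targets, all 12 were tested, 7 positive and 5 negative (median 0.00). Among them Mapkapk3 (MK3), the relative of Mapkapk2, stood at -0.36 (SE 0.18) with all samples and at -0.13 (SE 0.10) without CON 18 and RSD 8. In CON 18 it had 387.7 normalized reads, against a mean of 148.4 ± 16.4 in RSD (SD, n = 7). Zfp36 (tristetraprolin), the mRNA-destabilizing protein that Mapkapk2 phosphorylates, stood at -0.09 (SE 0.11).

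Of the MAP kinase phosphatases other than Dusp1, 8 of 11 were tested, 5 positive and 3 negative (median 0.08), with Dusp16, which acts on JNK and p38, at 0.17 (SE 0.08). Of the scaffolds and inhibitors, 13 of 17 were tested, 9 positive and 4 negative (median 0.08), with Spry1, an inhibitor of receptor signalling to ERK, at 0.31 (SE 0.22). Of the transcripts induced by ERK, 12 of 16 were tested, 7 positive and 5 negative (median 0.03); a few genes, Dusp6 among them, stand in more than 1 list. Dusp6, the ERK phosphatase whose transcript rises with ERK activity, stood at -0.21 (SE 0.13), or 8178 ± 1184 normalized reads in RSD (SD, n = 7) and 9545 ± 1939 in CON (n = 6). Of 4 inflammatory transcripts that depend on Map3k8 in macrophages, 3 were tested, 1 positive and 2 negative (median -0.04). Tnf, the cytokine whose mRNA export and production need Map3k8, stood at -0.23 (SE 0.30) with all samples and at 0.08 (SE 0.20) without CON 18 and RSD 8, and CON 18 had 604.0 normalized reads of it. The limma adjusted p of all these named genes, Nfkb1 included, was 0.821 to 0.896.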

How the data were processed

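RNA of sorted microglia was measured in 13 samples. Per the labels' protocols, the PicoPure kit gave the RNA and the Ovation SoLo kit the libraries, with AnyDeplete against ribosomal RNA. Reads were aligned with STAR, against mm10, and DESeq2 gave the normalized values, per the labels and the submitters' processing notes. Tool versions, counting method, gene models and strand setting: not given in the sources used here. Values deposited by the authors are a signal, the read count of a gene divided by the library's size factor: 100% of the values that stand for fewer than 1000 reads were whole multiples of 1 step per library, within 0.01 reads, so the reads were recovered. Counting errors given cover counting alone: molecular identifiers were not used here, so PCR copies may count as reads.

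RSD was compared with CON by limma 3.58.1 (trend, robust) on log2(value + 1), two-sided, with Benjamini-Hochberg adjustment over the 12496 genes kept by edgeR's filterByExpr (minimum count 10, minimum total 15). On this scale the changes of low genes are understated. With R 4.3.3, the recovered reads were also tested with edgeR 4.0.16 (quasi-likelihood) and DESeq2 1.42.0; the edgeR test called 0 genes. The limma step was tested on simulated data. For the correction for GC content, a lowess curve (span 0.3) of each library's deviations on the median transcript GC content in GENCODE M21 was taken away, for 12373 genes. Of the symbols, 13790 were found in GENCODE M21 and 14357 with RefSeq synonyms included. Correlations used 100000 resamples, or all orderings for the smaller sets. Both were shuffled across RSD and CON together after the group means were removed, not within each group. The permutation p-values, those called exact included, are therefore approximate.

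The members and lists were chosen with earlier results of these data known. All 9 members are named; from each pathway list, up to 3 genes of unadjusted p under 0.05, otherwise the 1 with the smallest p; the 5 transcripts most like Map3k8, with all samples and without CON 18 and RSD 8; and Nfkb1, Map2k2, Map2k6, Map2k4, Map2k7, Mapkapk3, Zfp36 and Dusp6 in any case. Of the genes this rule names, 1 is not reported here. Alternatives were other size factors, tools, pseudocounts and filters, each library left out, the number ranges and the GC correction.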

Additional observations from a re-analysis of the deposited data

Results flagged for a closer look

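Values of 2 members lay far from the other samples of their group. Map2k1 was 1186.7 normalized reads in RSD 12, and the next highest RSD sample, RSD 10, had 1030.8. Mapkapk2 was 651.2 normalized reads in RSD 8, and the next lowest RSD sample, RSD 11, had 785.9. In each case the gap to the nearest sample, as a share of the group's range, was above Dixon's 95% critical value for 7 samples. Chance marks about 1 in 20 groups, and 18 groups (9 members in 2 groups) were examined. The values of Map3k8 (418.1), Map2k1 (616.4) and Mapk14 (3035.8) in CON 18 came close to that limit for 6 samples without passing it.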

How the results depend on the processing

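Over 29 alternatives the sign of the RSD minus CON difference was kept by Map3k8 (0.02 to 0.54 on the log2 scale), Map2k3 (-0.23 to -0.01), Mapk3 (-0.35 to -0.04) and Dusp1 (0.04 to 0.37). It changed in 5 for Tnip2, 6 each for Map2k1, Mapk8 and Mapk14, and 3 for Mapkapk2. The count of genes called between RSD and CON was 0 under each alternative except DESeq2 (2 genes) and numbers 10 to 19 without CON 18 (11 genes, with 2 CON samples). The interaction count moved from 0 to 463 without CON 18 and RSD 8; with 1 library left out it was 0 to 1457, with 1457 without RSD 7, 3 without CON 1 and 0 without any other. The count for the number ranges, 86, was 246 without both libraries and 33 to 172 with 1 left out, the lowest without RSD 7 or CON 19 and the highest without CON 18. The cause of these changes was not tested. The correlation of Map3k8 with Mapk8 passed within numbers 10 to 19 (r = -0.943, permutation adjusted p = 0.0254). It did not pass by rank (Spearman permutation adjusted p = 0.0984), and r was -0.587 without CON 18. That with Mapk3 was -0.273 over all 13 samples, -0.198 within numbers 10 to 19 and 0.894 there without CON 18. The last had a permutation adjusted p of 0.0444, or 0.133 by rank. Correlations within the number ranges were not planned, and their p-values are approximate. No paired analysis was made, because the labels give no pairing of stressed and control samples. At 152 to 236 reads per library for Map2k3 and 215 to 371 for Map3k8, counting error alone is 5.19% to 8.11%.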
